A study of Zea mays with 9 samples.

Results

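The 17 genes described here were strongly lowered in every library of maize endosperm that lacked the wild-type form of thk1. They were chosen from 44146 nuclear gene models with identifiers of the Zm00001d series. Each had at least 1 CPM (its count scaled to 1000000 gene counts of its library) in all 3 WT libraries, and its highest mutant library reached at most 40% of its lowest WT library. These values come from the same comparison of WT with mutants that is described below, so the lowering itself is how the genes were picked and is given as a description without a test. In all, 17223 gene models had at least 1 CPM in each WT library, and the 17 genes made up 0.0987% of them. They are Zm00001d034839, Zm00001d017545, Zm00001d049554, Zm00001d039039, Zm00001d027395, Zm00001d026156, Zm00001d000181, Zm00001d013960, Zm00001d027022, Zm00001d041204, Zm00001d035178, Zm00001d016651, Zm00001d034413, Zm00001d025797, Zm00001d026106, Zm00001d009608 and Zm00001d048773, in order of their mean WT CPM.

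Poly(A) RNA was counted per gene in endosperm that had been taken from self-pollinated field plants at 19 DAP, or days after pollination. The 3 groups were WT, homozygous thk1_iso15 and homozygous thk1_iso17 (here thk1-iso15 and thk1-iso17), with 3 biological replicates each, and all are labelled as strain B73. Both alleles were compared with the same 3 WT libraries, and the labels give no second source of either allele, so a difference of line or plants that comes with an allele cannot be told apart from the allele. The labels do not say how many kernels or plants made up a replicate. Gene counts ranged from 21871601 to 76651742 per library, so 1 CPM stood for 21.9 to 76.7 counts.

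The maize endosperm is a storage tissue: its starchy cells fill with starch and zein proteins, its outer aleurone layer later secretes enzymes for germination, and its basal transfer cells import sugar from the mother plant. The gene thk1 (thick aleurone1) encodes a NOT1 protein, the scaffold of the CCR4-NOT complex, which shortens the poly(A) tails of mRNAs and acts in their decay and translation. Mutants of this gene form extra aleurone layers. Dissected endosperm mixes these cell types, and in such bulk tissue fewer cells of a type and less RNA per cell cannot be told apart.

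The identities of the 17 genes rest on their identifiers alone. RefSeq's list of genes for Zm-B73-REFERENCE-NAM-5.0, a later assembly, held 0 of the 44146 Zm00001d identifiers, and so 0 of the 17. The lack of a match is thus not particular to these genes. No symbol, product, position, sequence or cell type is given for any of the 17. For the same reason thk1 itself and marker genes of the endosperm cell types were not analysed here.

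The rule set these genes apart from most of the transcriptome. Across the 17223 eligible genes, the highest mutant library had a median of 185% of the lowest WT library. This ratio sets the highest of 6 libraries against the lowest of 3, so it tends to be high even without a change. It does not measure how far a typical gene moved. The fitted log2 fold changes against WT over all 23529 genes tested had medians of 0.01 for thk1-iso15 and 0.02 for thk1-iso17. Those fits were scaled by TMM factors, described below, which place the bulk of genes near 0. Their medians therefore do not measure how far a typical gene moved either. The mutants lay wholly below WT in 482 of the eligible genes and wholly above it in 4173, on the scale of CPM per total gene counts. With the rule turned round, 55 genes had a lowest mutant library of at least 2.5 times the highest WT library. This balance depended on the scale. With TMM factors, which correct for a few abundant genes taking up a library, mutants lay wholly below WT in 2573 of 17597 eligible genes and wholly above it in 1825, and 39 genes met the rule against 27 the rule turned round. A single mutant library stood at or below the 40% line for 108 to 243 of the eligible genes. All 6 mutant libraries met it in the 17 genes, and exactly 5 met it in 19 others. In 9 of these 19 the library above the line was thk1-iso17 replicate 3.

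**Figure D1:**
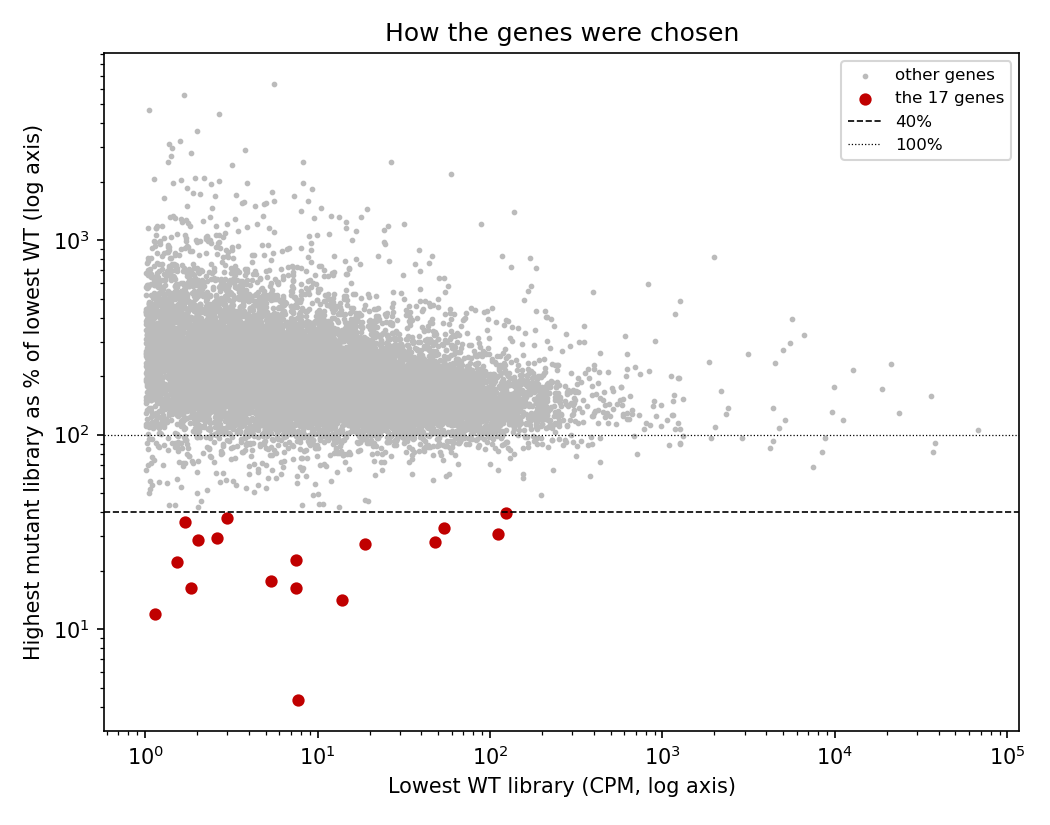
Each point is 1 of the 17223 gene models with at least 1 CPM in every WT library. The x axis gives its lowest WT library (CPM, log axis) and the y axis its highest mutant library as a percentage of that (log axis). The 17 chosen genes (red) lie below the dashed line at 40%, with Zm00001d027022 the lowest at 4.33%.

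Just inside the line lay Zm00001d034839 with a highest mutant library at 39.4% of the lowest WT library, Zm00001d035178 at 37.5% and Zm00001d009608 at 35.4%. Just outside lay Zm00001d019895 at 42.6%, Zm00001d051917 at 42.7% and Zm00001d022669 at 43.4%. Zm00001d019895 averaged 15.4 CPM in WT and 3.08 CPM over the 6 mutant libraries, so its mean was lowered more than that of Zm00001d034839, which averaged 132 and 41.0 CPM. The line divides genes by their most extreme libraries and not by their means.

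Membership also depended on how libraries were scaled. The TMM factors lay between 0.785 and 0.926 in WT and between 0.946 and 1.21 in the mutants. With TMM-scaled CPM, 39 genes met the rule. All 17 were among them, but these factors could only move a gene further below the line. The count was 29 without WT replicate 2 and 26 without thk1-iso17 replicate 3. Leaving out a library can add genes and cannot remove any, so the presence of all 17 says nothing about how stable membership is.

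Of the 17 genes, 4 had mean WT levels of at least 50 CPM. CPM is not divided by gene length, so the order of these genes is one of read counts and not of transcript numbers. Values below are for replicates 1, 2 and 3 in that order.

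Zm00001d034839 had 137, 135 and 124 CPM in WT, 47.6, 42.2 and 32.8 CPM in thk1-iso15, and 48.7, 47.8 and 27.0 CPM in thk1-iso17. It ranked 629th of all gene models by mean WT CPM and kept the largest share of its WT level among the 17 genes, 31.0% in thk1-iso15 and 31.2% in thk1-iso17. Zm00001d017545 had 117, 114 and 111 CPM in WT, 27.0, 31.7 and 16.7 CPM in thk1-iso15, and 34.1, 25.4 and 16.6 CPM in thk1-iso17. Its means in the 2 alleles, 25.1 ± 7.64 and 25.3 ± 8.75 CPM (SD, n = 3 each), were almost equal. In both genes the WT libraries lay close together, and replicate 3 was the lowest of each mutant group.

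Zm00001d049554 had 57.4, 54.3 and 56.4 CPM in WT and 11.7, 11.6 and 11.3 CPM in thk1-iso15. Its thk1-iso17 libraries spread much further, at 17.9, 15.6 and 4.28 CPM, and enclosed all 3 thk1-iso15 libraries. Zm00001d039039 had 62.6, 48.0 and 49.8 CPM in WT, 10.8, 9.02 and 6.72 CPM in thk1-iso15, and 5.87, 9.47 and 13.5 CPM in thk1-iso17. Here thk1-iso17 replicate 3 was the highest of the 6 mutant libraries, where in the 3 genes before it was the lowest.

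A group of 7 genes had mean WT levels between 5 and 50 CPM. Zm00001d027395 had 19.6, 18.8 and 37.0 CPM in WT, 3.66, 2.95 and 1.92 CPM in thk1-iso15, and 3.08, 3.07 and 5.13 CPM in thk1-iso17. WT replicate 3 stood 1.97 times above the lowest WT library. Zm00001d026156 had 14.1, 14.4 and 13.8 CPM in WT, the tightest WT group of all 17 genes with a coefficient of variation of 1.98%. It had 0.640, 0.749 and 1.32 CPM in thk1-iso15 and 1.96, 1.79 and 0.499 CPM in thk1-iso17. Again thk1-iso17 replicate 3 was the lowest mutant library.

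Zm00001d000181 had 7.49, 9.30 and 11.1 CPM in WT, 0.640, 0.774 and 0.480 CPM in thk1-iso15, and 0.718, 1.22 and 1.21 CPM in thk1-iso17. Zm00001d013960 had 9.24, 7.47 and 10.3 CPM in WT, 1.14, 0.675 and 1.46 CPM in thk1-iso15, and 1.5, 1.69 and 1.14 CPM in thk1-iso17. In both genes the alleles overlapped, with thk1-iso17 the higher on average.

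Zm00001d027022 was lowered furthest by the measure of the rule. It had 8.53, 7.68 and 7.86 CPM in WT, 0, 0.0250 and 0.230 CPM in thk1-iso15, and 0.287, 0.1 and 0.333 CPM in thk1-iso17. The lowest WT library was 23.1 times the highest mutant library. Of the 1181 counts in WT, 205 came from the shallowest WT library, whereas the 3 thk1-iso15 libraries held 12 counts together and the 3 thk1-iso17 libraries 43. Counts were thus present in 5 of the 6 mutant libraries, and the 0 in thk1-iso15 replicate 1 allows a level of up to 0.137 CPM (3 counts, counting error only).

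Zm00001d041204 had 6.12, 5.40 and 5.64 CPM in WT, 0, 0.05 and 0.438 CPM in thk1-iso15, and 0.952, 0.883 and 0.541 CPM in thk1-iso17. The 3 libraries of thk1-iso15 lay below those of thk1-iso17 without overlap. Zm00001d035178 had 3.00, 6.88 and 6.91 CPM in WT, 0.869, 0 and 0.522 CPM in thk1-iso15, and 0.809, 1.12 and 0.478 CPM in thk1-iso17. Its WT replicate 1 was the low library that placed it near the 40% line, since the WT mean was 12.1 times the thk1-iso15 mean and 6.96 times the thk1-iso17 mean.

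The other 6 genes had mean WT levels under 5 CPM. Zm00001d016651 had 3.91, 4.91 and 2.61 CPM in WT, 0.137, 0.250 and 0.584 CPM in thk1-iso15, and 0.770, 0.441 and 0.187 CPM in thk1-iso17. Zm00001d034413 was the most uneven gene in WT, with 2.75, 1.15 and 6.09 CPM, a 5.30-fold range and a coefficient of variation of 75.8%. It nearly vanished from the mutants, with 3 counts over all thk1-iso15 libraries, all from replicate 1, and 5 counts over all thk1-iso17 libraries, against 475 in WT. Per total counts, WT was 116 times thk1-iso15, with a 95% exact interval from 39.5 to 565 that covers counting error only.

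Zm00001d025797 was also uneven in WT, with 2.41, 1.85 and 5.08 CPM. It had 0, 0.05 and 0.125 CPM in thk1-iso15 and 0.0261, 0.301 and 0.0416 CPM in thk1-iso17, where 15 of its 19 counts came from replicate 2. WT replicate 3 was the highest library in this gene, in Zm00001d034413 and in 5 other genes of the 17. Among the 17 genes, 3 had WT libraries more than 2-fold apart: these last 2 and Zm00001d035178.

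Zm00001d026106 had 3.16, 2.03 and 2.11 CPM in WT, 0.229, 0.275 and 0.104 CPM in thk1-iso15, and 0.587, 0.321 and 0.229 CPM in thk1-iso17. Zm00001d009608 had 1.96, 1.70 and 2.02 CPM in WT, 0.366, 0.425 and 0.209 CPM in thk1-iso15, and 0.483, 0.441 and 0.603 CPM in thk1-iso17. It is the other gene in which all thk1-iso17 libraries lay above all thk1-iso15 libraries. Zm00001d048773 had the lowest WT mean, with 1.58, 1.76 and 1.53 CPM, and 0.0457, 0.0250 and 0.104 CPM in thk1-iso15 and 0.0913, 0.341 and 0.125 CPM in thk1-iso17.

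**Figure D2:**
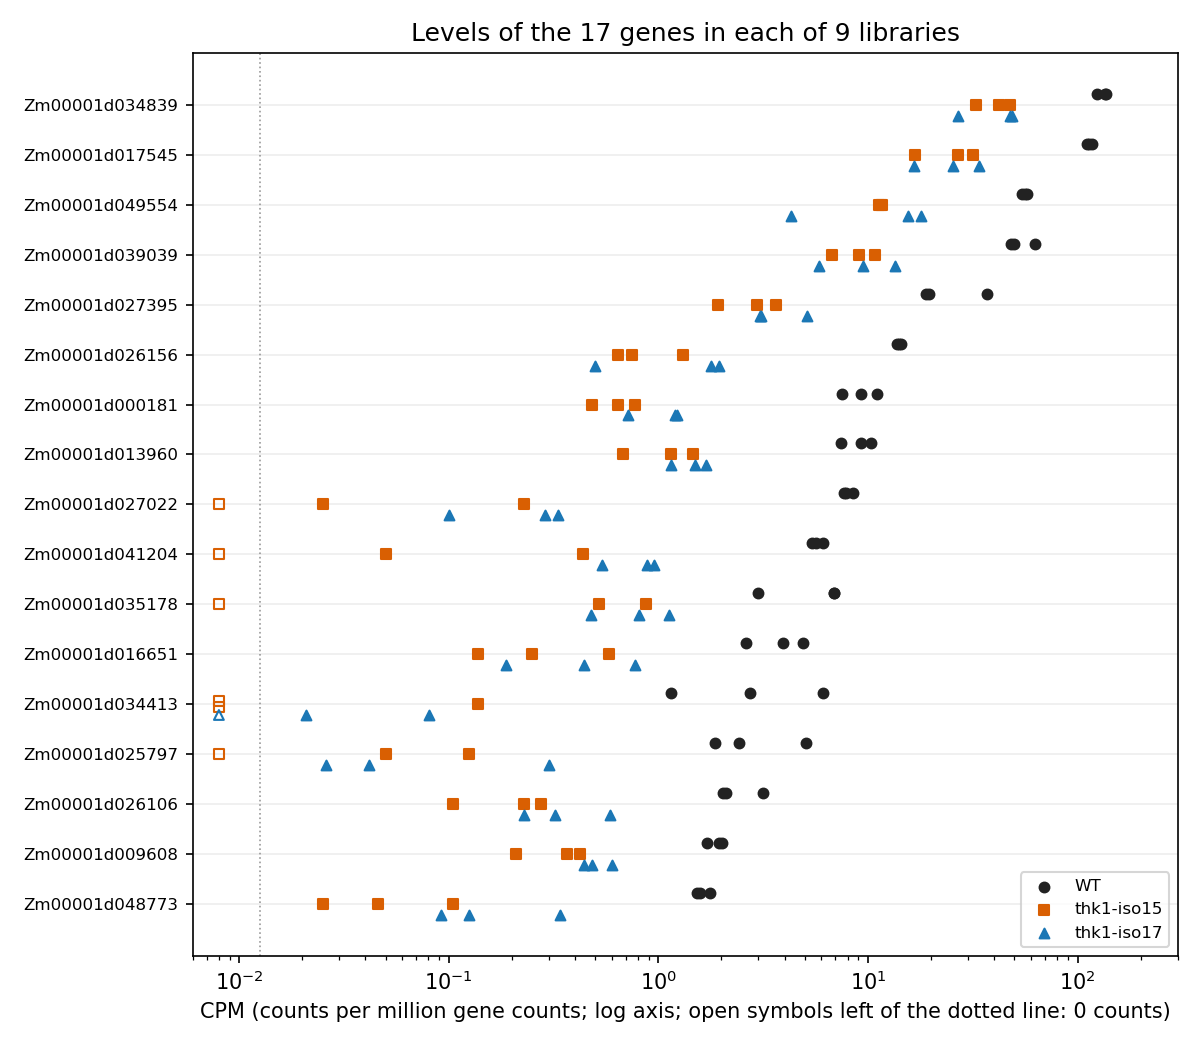
CPM (log axis) of each of the 17 genes in the 3 WT (black circles), 3 thk1-iso15 (orange squares) and 3 thk1-iso17 (blue triangles) libraries, 1 point per library. Open symbols left of the dotted line mark libraries with 0 counts, which occur in 7 of 102 pairs of gene and mutant library. The gap between WT and mutants is narrowest at the top, in Zm00001d034839, and widest in Zm00001d027022.

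No mutant library was silent for these genes as a whole. Their summed level was 458, 435 and 452 CPM in the WT libraries, 105, 101 and 75.0 CPM in those of thk1-iso15, and 118, 110 and 71.8 CPM in those of thk1-iso17. Zm00001d034839 and Zm00001d017545 made up most of each sum. Libraries with 0 counts occurred in 5 genes, namely Zm00001d027022, Zm00001d041204, Zm00001d035178, Zm00001d034413 and Zm00001d025797, and 4 of these were at 0 in thk1-iso15 alone. That group includes the library with the fewest counts of the series.

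Across the 17 genes the fitted log2 fold changes against WT had a median of -3.87 for thk1-iso15 and -3.19 for thk1-iso17, beside medians of 0.01 and 0.02 over all 23529 genes tested. These fits are on the TMM scale, which places the bulk of genes near 0. All 17 passed the filter on low counts. All 17 were called lower in each allele by edgeR's quasi-likelihood test (Benjamini-Hochberg adjusted p under 0.05), where the share of all genes tested that were called lower was 6.82% for thk1-iso15 and 6.29% for thk1-iso17. As the rule used these contrasts, nothing is read from those counts. For thk1-iso15 the fold changes ran from -1.97 in Zm00001d034839 to -6.89 in Zm00001d034413, and for thk1-iso17 from -2.08 to -7.00 in the same genes. For Zm00001d034413 the fitted values rest on 3 and 5 mutant counts and depend on the prior count of the fit.

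The rule capped the libraries of both alleles at the same line, so a gene lowered in 1 allele alone could not be among the 17, and their differences between the alleles are bounded by that choice. The values that follow describe the genes so chosen, and nothing about the likeness of the alleles is read from them. By the edgeR test 0 of the 17 genes differed between thk1-iso17 and thk1-iso15, where 0.111% of all genes tested did. At an unadjusted p under 0.05 there was 1 of the 17, Zm00001d041204, beside 6.88% of all genes. DESeq2 and voom also called 0 of the 17, beside 197 of 33773 genes fitted by DESeq2 and 27 of 23529 by voom. A p that misses the threshold does not show that the alleles act alike, and the standard errors below give the precision.

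In the 4 genes of at least 50 CPM the fitted differences between the alleles were close to 0. The log2 difference, thk1-iso17 minus thk1-iso15, was -0.11 (SE 0.24) in Zm00001d034839, -0.11 (SE 0.26) in Zm00001d017545, 0.01 (SE 0.40) in Zm00001d049554 and -0.02 (SE 0.26) in Zm00001d039039. In 12 of the 13 genes with lower WT levels the difference was positive, which means less lowering in thk1-iso17. The exception was Zm00001d034413, at -0.11 with an SE of 1.60. The median over the 17 genes was 0.47, beside 0.02 over all genes tested, and 13 of the 17 were above 0, beside 52.8% of all genes. On the scale of CPM per total gene counts the thk1-iso17 mean was the higher in 16 of the 17, beside 73% of the eligible genes.

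Zm00001d041204 had the largest difference between the alleles. Its mean was 0.163 ± 0.240 CPM in thk1-iso15 and 0.792 ± 0.220 CPM in thk1-iso17 (SD, n = 3 each), 2.85% and 13.8% of the WT mean. The fitted log2 difference came to 1.87 (SE 0.71, edgeR adjusted p = 0.664). Of the 23 counts in thk1-iso15, 21 came from replicate 3, the highest library of that allele, and the other 2 libraries held 2. Without replicate 3 the difference was 4.45 with an edgeR adjusted p of 0.0344, and over the other alternatives the adjusted p lay between 0.124 and 0.999.

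The next largest differences were 1.39 (SE 0.75, edgeR adjusted p = 0.786) in Zm00001d048773 and 1.01 (SE 0.72, edgeR adjusted p = 0.839) in Zm00001d027022. Both have fewer than 15 counts over the 3 thk1-iso15 libraries. Zm00001d000181 had a smaller difference of 0.59 with a smaller error (SE 0.31, edgeR adjusted p = 0.776). On the scale of CPM, thk1-iso17 lay wholly above thk1-iso15 in 2 of the 17 genes, Zm00001d041204 and Zm00001d009608, and wholly below it in 0. Over all genes tested, 12% lay wholly above and 1.68% wholly below.

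**Figure D3:**
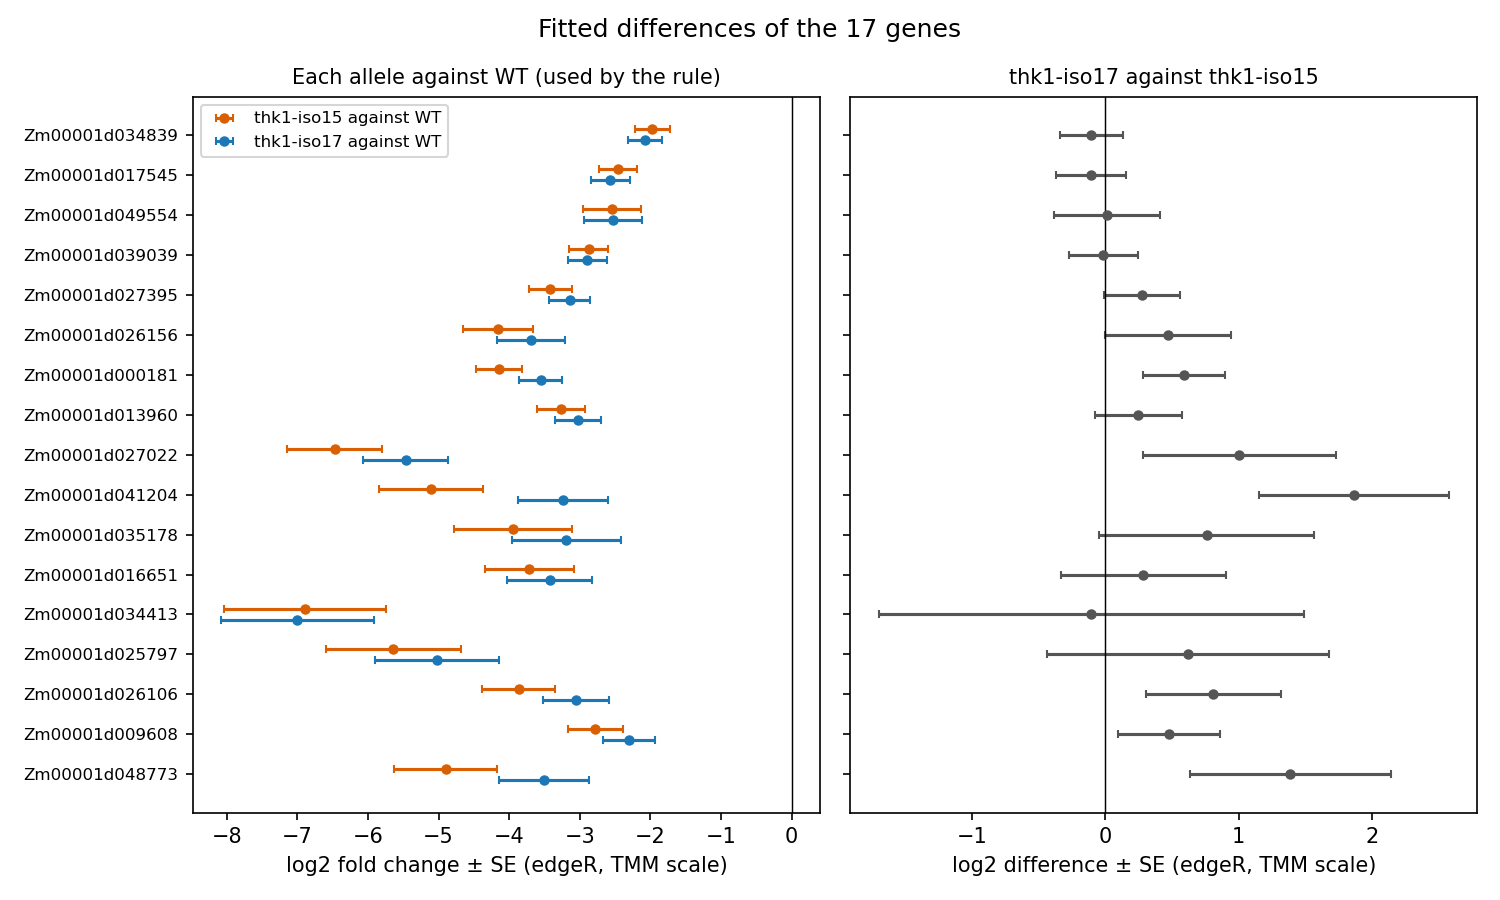
Log2 differences fitted by edgeR on the TMM scale, with bars of 1 standard error, for the 17 genes in order of mean WT CPM. The left panel shows each allele against WT, the contrast that chose the genes, with all values between -7.00 and -1.97. The right panel shows thk1-iso17 against thk1-iso15, where the 4 uppermost genes lie near 0 and Zm00001d041204 is farthest from it at 1.87.

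The 17 genes did not share one order of mutant libraries. The highest of the 6 mutant libraries was thk1-iso17 replicate 1 in 7 genes, replicate 2 of that allele in 5, its replicate 3 in 4 and thk1-iso15 replicate 1 in 1. The library thk1-iso17 replicate 3 was the lowest of the 6 in Zm00001d034839, Zm00001d017545, Zm00001d049554 and Zm00001d026156, and the highest in Zm00001d039039, Zm00001d027395, Zm00001d027022 and Zm00001d009608. In Zm00001d049554 it held 4.28 CPM beside 15.6 and 17.9 in the other libraries of its allele.

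The coefficient of variation between replicates was larger in thk1-iso15 than in WT for 15 of the 17 genes, and likewise larger in thk1-iso17 for 15. Over all eligible genes this held for 50.1% in thk1-iso15 and for 57.9% in thk1-iso17. Its median was 14.8% in WT and 40.2% in each allele, while the medians over all eligible genes were 15.9%, 15.4% and 18.4% in WT, thk1-iso15 and thk1-iso17. The rule used the lowest WT and the highest mutant library of each gene. The spreads of the 17 are thus not independent of their choice, the eligible genes are not a like background, and nothing is read from these counts. Mutant levels rest on fewer counts, and the part this has in the spread was not tested. The biological coefficient of variation fitted by edgeR over all 9 libraries ranged from 0.213 in Zm00001d034839 to 0.649 in Zm00001d034413, with a median of 0.348 beside 0.234 over all genes tested.

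Identifier numbers of the 17 genes were scattered. They follow an order of gene models and are not mapped positions here. The closest pair was Zm00001d026106 and Zm00001d026156, 50 numbers apart, and the other genes were at least 309 numbers from the nearest of the 17. Around the 17 genes, 150 other tested genes had identifiers within 10 numbers on either side. Of these neighbours 13 (8.67%) were lower and 13 (8.67%) higher in thk1-iso15 by the edgeR test, beside 6.82% and 8.66% of all genes tested. In thk1-iso17, 8 (5.33%) were lower and 11 (7.33%) higher, beside 6.29% and 7.96%. These shares were near those of all genes. This window was chosen after the data were seen.

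Some neighbours did move with their member, and those named here were chosen after their values were seen. Their CPM is per total gene counts, whereas log2 fold changes and their p-values are on the TMM scale. TMM factors were lower in every WT library than in any mutant library. Fold changes against WT therefore lie below the ratios of the CPM means, and part of a small decline comes from the scaling. Zm00001d041214, 10 numbers after Zm00001d041204, stood at 234 ± 38.5 CPM in WT, 74.6 ± 16.5 CPM in thk1-iso15 and 80.9 ± 13.9 CPM in thk1-iso17 (SD, n = 3 each). Its log2 fold changes were -1.91 (SE 0.17, edgeR adjusted p = 0.000322) and -1.93 (SE 0.17, edgeR adjusted p = 0.000412). It met the rule of the 17 genes on the TMM scale, but on total counts its highest mutant library reached 49.0% of its lowest WT library.

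Next to Zm00001d039039, 4 of 10 neighbours were lower in each allele, beside 6.82% of all genes tested in thk1-iso15 and 6.29% in thk1-iso17. They were not the same 4: Zm00001d039047 was lower in thk1-iso15 only and Zm00001d039041 in thk1-iso17 only. Another neighbour, Zm00001d039037, was higher in thk1-iso17, at 41.8 ± 8.80 CPM against 17.8 ± 1.60 CPM in WT (SD, n = 3 each; log2 fold change on the TMM scale 0.81, edgeR adjusted p = 0.00468). The immediate neighbour, Zm00001d039038, went from 35.8 ± 2.68 CPM in WT to 28.4 ± 5.13 and 27.9 ± 3.03 CPM (SD, n = 3 each), log2 fold changes of -0.60 (edgeR adjusted p = 0.0262) and -0.76 (edgeR adjusted p = 0.0107). In thk1-iso15 the edgeR adjusted p of Zm00001d039038 rose above the threshold when 1 of 5 libraries was left out, WT replicate 1, 2 or 3 or thk1-iso15 replicate 1 or 3 (0.0549 to 0.0905), and in thk1-iso17 without its replicate 1 (0.0543). These differences are small beside those of Zm00001d039039, -2.87 and -2.89. Whether counting used strand, and how reads in overlapping genes were assigned, is not given in the sources used here. The counts of a gene and of a neighbour that overlaps it may therefore not be independent.

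Around Zm00001d026106, thk1-iso15 had 4 of 7 neighbours lower and thk1-iso17 had 0 of 7, beside 6.82% and 6.29% of all genes tested. The most abundant, Zm00001d026113, had 95.7 ± 18.6 CPM in WT, 34.2 ± 9.88 CPM in thk1-iso15 and 61.9 ± 27.3 CPM in thk1-iso17 (SD, n = 3 each). Its log2 fold change was -1.74 (edgeR adjusted p = 0.0101) in thk1-iso15 and -1.04 (edgeR adjusted p = 0.0644) in thk1-iso17. Its difference between the alleles of 0.71 did not pass (edgeR adjusted p = 0.739), so the neighbours are not shown to differ by allele.

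**Figure D4:**
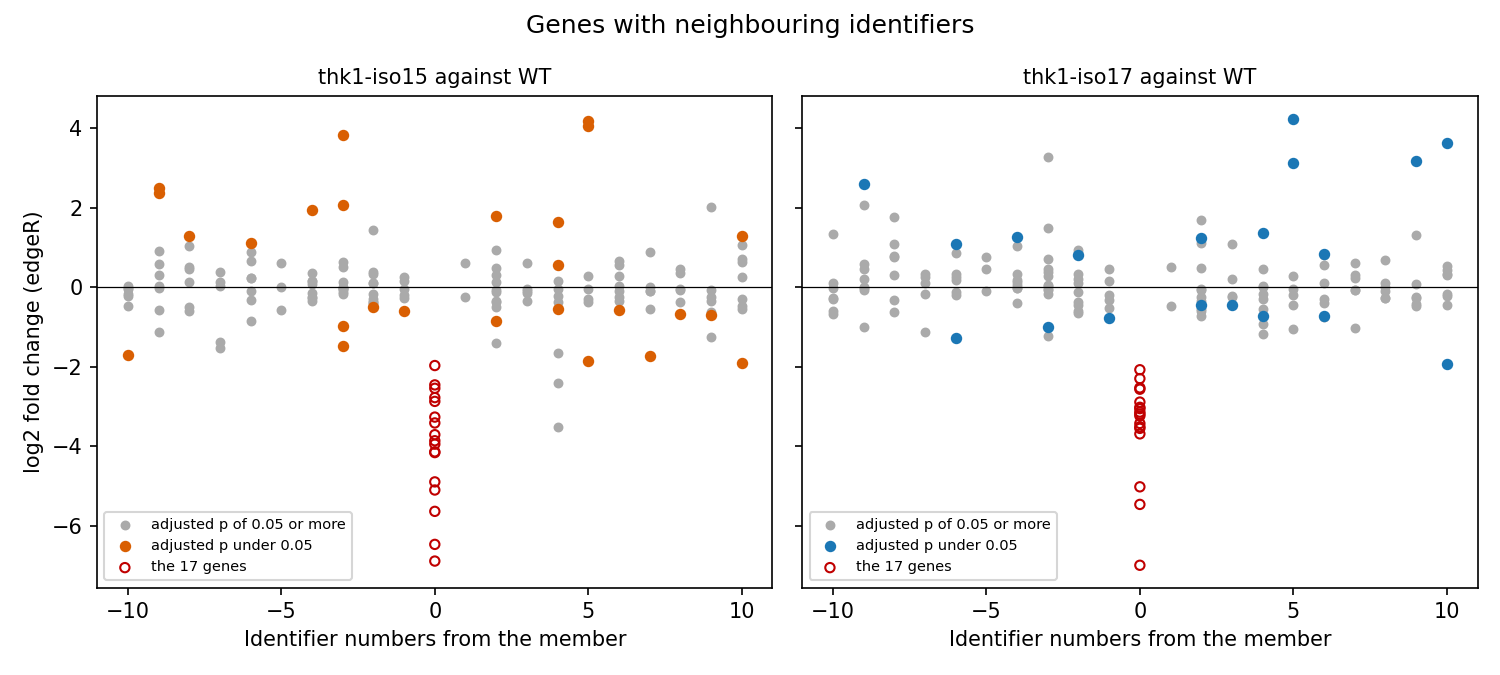
Log2 fold change against WT (edgeR) of the tested genes within 10 identifier numbers of each of the 17 genes, by distance in identifier numbers, with the 17 genes as open red circles at 0. Coloured points passed the adjusted threshold of 0.05, 26 for thk1-iso15 and 19 for thk1-iso17, and they lie on both sides of 0.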

How the data were processed

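Poly(A) RNA of 9 endosperm libraries was sequenced as paired ends of 100 bases, per the labels' protocols. The authors deposited raw counts per gene for 46430 identifiers and 5 summary lines per library, which were left out of totals and tests, and genes took 52.9% to 66.5% of all entries. Per the submitters' processing notes, the build was B73 RefGen_v4, and HTSeq 0.11.1, StringTie 1.3.6, SAMtools 1.9 and HISAT2 2.1.0 were used. Their settings were not given in the sources used here.

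CPM was the count scaled to 1000000 gene counts of a library. Counts were fitted in R 4.3.3 with edgeR 4.0.16 (filterByExpr, TMM factors, glmQLFit with 3 groups, glmQLFTest), and p-values were adjusted over all 23529 genes by Benjamini-Hochberg. Standard errors are the fold change over the square root of F. The fit was also run on simulated counts. These held no shift of scale between WT and mutants such as the TMM factors show, so nothing is read from that run here. Alternatives were RLE and upper quartile factors, DESeq2 1.42.0, voom in limma 3.58.1, other filters, the replicate number as a block, fits of the groups compared alone, and leaving out each library. Each p-value sets a difference between groups against the spread between replicates. As the labels do not say how many kernels or plants made up a replicate, the source of that spread is not known. The chi-square per degree of freedom between replicates was 31.0 or more, so no pair agreed within sampling noise.

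The members and lists were chosen with earlier results of these data known. The naming rule took the 12 genes with the highest WT mean and, of those with at least 5 CPM, the 12 with the lowest ratio of mutant to WT (11 existed). The other 5 were named because all 17 are accounted for. Gene lists, cell type markers and promoter motifs that had been planned could not be used, since 0 identifiers matched the reference table.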

Additional observations from a re-analysis of the deposited data

How the results depend on the processing

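The number of genes meeting the rule was 17. It was 39 with TMM-scaled CPM, 39 with RLE-scaled CPM and 38 with upper-quartile-scaled CPM, and 32 with a line at 50% in place of 40%. All 17 were included each time. With the line at 50% this follows from the rule, and with TMM from factors that were lower in every WT library than in any mutant library. The number was 12 with a line at 30% and 10 with at least 5 CPM in each WT library. Leaving out each library in turn gave 17 to 29 genes, a step that can add genes and cannot remove any. Runs of identifiers within 50 numbers held 2 genes, and within 20 numbers 0. Against WT, leaving out each library gave 17 called genes in thk1-iso15 throughout and 16 or 17 in thk1-iso17. Over all 23974 to 24186 genes tested in these fits, 1440 to 4385 and 1176 to 3944 were called in either direction. As the rule used these contrasts, nothing is read from the counts of the 17. Their median log2 fold changes ran from -4.01 to -3.50 in thk1-iso15 and from -3.39 to -3.05 in thk1-iso17. Between the alleles these fits called 0 or 1 of the 17, the 1 being Zm00001d041204, and 21 to 72 of all genes. The other alternatives called 0 of the 17 and 17 to 197 of all genes. The median difference between the alleles stayed positive in every alternative run, from 0.27 to 0.53. Of 286 single differences between the alleles under an alternative, 17 changed sign, none of them called.

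With the replicate block, all 17 genes were called in each allele against WT. Of all 23529 genes tested, that fit called 3971 in thk1-iso15 and 3761 in thk1-iso17. Between the alleles it called 0 of the 17 and 33 of all genes, and the median difference of the 17 was 0.38. Of 9 same-numbered pairs of libraries, 3 had correlated deviations above 0.1 (range -0.11 to 0.24). The correlations of the other pairs ran from -0.23 to 0.12. Of 9 libraries, 2 correlated best with their own number in both other groups. Whether libraries share more than a number was not established by these values. Depth limits the genes under 10 CPM: 3 counts stand for 0.0391 to 0.137 CPM in a mutant library. Promoter motifs were not run.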

Other observations

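On the TMM scale 22 further genes met the rule that chose the 17. Their mean WT levels ran from 1.03 to 234 CPM, and 2 of them, Zm00001d041214 and Zm00001d039066, stood above 50 CPM. Zm00001d039066 averaged 184 CPM in WT and 65.4 CPM over the 6 mutant libraries, and its highest mutant library was 60.2% of its lowest WT library on total counts and 39.0% on the TMM scale. Zm00001d001936 was lowered furthest among the 22, from 1.35 CPM in WT to 0.0524 CPM over the mutants. It was left out of the 17 by its lowest WT library, at 0.927 CPM.

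Near Zm00001d016651, which was lowered in both alleles, 3 genes were higher. Zm00001d016655 went from 3.44 ± 0.275 CPM in WT to 13.2 ± 4.65 CPM in thk1-iso15 and 11.8 ± 1.52 CPM in thk1-iso17 (SD, n = 3 each; edgeR adjusted p = 0.00432 and 0.00826). Zm00001d016660 was higher in thk1-iso17, with 8.95 ± 4.97 CPM against 0.742 ± 0.266 CPM in WT and 0.387 ± 0.260 CPM in thk1-iso15, and its log2 difference between the alleles of 4.43 passed (edgeR adjusted p = 0.0156). That call was lost by voom (adjusted p = 0.198), with these groups alone (edgeR adjusted p = 0.0619) and without thk1-iso15 replicate 1 (edgeR adjusted p = 0.0649). Zm00001d016661 had 0.812 ± 0.525 CPM in WT, 0.751 ± 0.976 CPM in thk1-iso15 and 13.9 ± 6.83 CPM in thk1-iso17 (SD, n = 3 each). Its log2 fold change in thk1-iso17 was 3.62 (SE 0.82, edgeR adjusted p = 0.0176, but 0.0686 without WT replicate 1 and 0.0729 without WT replicate 3). Its difference between the alleles of 4.08 did not pass (edgeR adjusted p = 0.202), but that depended on the setting. It passed by DESeq2 (adjusted p = 0.0196), and by edgeR with no filter on low counts (adjusted p = 0.0119) and with the replicate block (adjusted p = 0.0133). Without thk1-iso15 replicate 2 it was 6.23 and also passed (edgeR adjusted p = 0.0227). The 3 genes were chosen after their values were seen. As above, their CPM is per total gene counts and the edgeR log2 values are on the TMM scale.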
